A study of Drosophila melanogaster with 12 samples.

Results

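In the fly eye, light-activated rhodopsin switches on a trimeric G protein of the Gq class, which in turn activates phospholipase C. The phospholipase cleaves the membrane lipid PIP2 into IP3 and diacylglycerol, and the light-gated TRP and TRPL channels open in the wake of this cleavage. The scaffold protein INAD holds the phospholipase, an eye-specific protein kinase C and the TRP channel together in the light-sensing membrane. The 8 genes described here encode these parts, and they were taken by their FlyBase identifiers from the 13929 genes of the table of counts. Galphaq, Gbeta76C and Ggamma30A encode the subunits of the visual G protein. The norpA gene encodes the phospholipase C of phototransduction, and Plc21C encodes a second phospholipase C of the beta class. The inaE gene encodes a diacylglycerol lipase, inaC the eye protein kinase C and inaD the scaffold.

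RNA was sequenced from photoreceptor nuclei of Drosophila melanogaster males in 12 libraries, 3 in each of 4 groups. Nuclei were pulled down through GFP fused to the KASH domain of Msp300, which rh1-GAL4 drove in outer photoreceptors from UAS-GFP-Msp300KASH. All flies carried both transgenes in a background that holds w and ry mutant alleles. The tag insertion carries a w+ marker and the driver insertion a ry+ marker. The study states that all its flies had pigmented eyes. Rh1>ClkDN flies also expressed UAS-ClkDN, a Clock protein without its DNA-binding region that still binds its partner Cycle, and Rh1>Ctrl flies expressed UAS-LacZ instead. Each group was collected at ZT9 of a 12 h light and 12 h dark cycle, from many pooled flies per library. The young flies are called D1 here, since they were aged for 1 day, although the sample titles give day 2. The older flies are called D10, after 10 days of ageing. The rh1 promoter limits the effector to cells that use rhodopsin 1, and each genotype is 1 driver and effector combination. The replicates are stated to be independent, and the p-values measure the spread between these libraries.

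Total counts ran from 1356529 to 5635951 per library. Clk, which checks the genotype although its reads include the transgene, was between 5183 and 9700 CPM (the TMM-scaled share of a library's counts, times 1e+06) in Rh1>ClkDN and between 20.4 and 77.8 CPM in Rh1>Ctrl. Of 8 outer photoreceptor markers, all were detected. They do not include the 8 genes but share ninaE, Arr1, Arr2, trp and ninaC with the rest of the cascade described here. By the thresholds given below, 7 were called lower in Rh1>ClkDN at D1 and 8 at D10, beside 5.86% and 9.07% of all genes tested. Pph13, not called at D1 (log2 fold change -0.63), was called there without replicate 3 of Rh1>Ctrl (-0.87). Its call at D10 was lost without replicate 2 of Rh1>Ctrl (-0.57). The summed level of the 8 markers was between 13446 and 16575 CPM in Rh1>ClkDN and between 26009 and 61038 CPM in Rh1>Ctrl. In bulk RNA, fewer cells of a type and less RNA per cell cannot be told apart. Markers of the other cell types were low. The 4 glial markers together reached 57.1 CPM, the 2 muscle markers 291 CPM, the 2 hemocyte markers 88.6 CPM, the 4 cone and pigment cell markers 286 CPM, and the 6 markers of the inner photoreceptors R7 and R8 reached 605 CPM. The 4 markers of other neurons reached 363 CPM. Of the defining markers, sens of R8 was at 0 in 3 libraries, NimC1 of hemocytes in 2 and Act88F of muscle in 1. A pair of Rh1>Ctrl libraries stood apart. Replicate 2 at D10 had the fewest counts and 113 genes at 0 that had at least 10 counts in each of its partners. Replicate 3 at D1 had counts for 2337 genes that neither partner detected. Values of the 8 genes that rest on either of these Rh1>Ctrl libraries are given with and without it. Replicate 1 of Rh1>ClkDN at D1 was also less like its partners, with Pearson's r of log2(CPM + 1) of 0.960 and 0.963, against 0.990 between them. The highest sums given above for glia, hemocytes, cone and pigment cells, R7 and R8 and other neurons all came from this Rh1>ClkDN library.

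All 8 genes had counts in every library, from 79 for Galphaq in replicate 2 of Rh1>Ctrl at D10 to 120423 for norpA, and all passed the filter of every comparison. Differences between groups were tested by edgeR's quasi-likelihood test over every gene that reached 10 counts in 3 or more libraries of the comparison. A call needed an adjusted p (Benjamini-Hochberg, over all genes tested) under 0.05 and a fold change over 1.5. At D1 the test called 6 of the 8 genes, 2 higher and 4 lower in Rh1>ClkDN, where 16.1% of the 8220 genes tested were called, 10.2% higher and 5.86% lower. At D10 it called 4 of the 8, 1 higher and 3 lower, beside 23.5% of 7875 genes, 14.5% higher and 9.07% lower. The median log2 fold change of the 8 genes was -0.69 at D1 and -0.55 at D10, against 0.04 and -0.03 over all genes tested. Both comparisons have separate Rh1>Ctrl libraries. At D1 Galphaq, Gbeta76C, norpA and inaD were called lower and inaE and Ggamma30A higher. At D10 Gbeta76C, norpA and inaD were called lower and inaE higher. Plc21C and inaC were called at neither age.

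**Figure D1:**
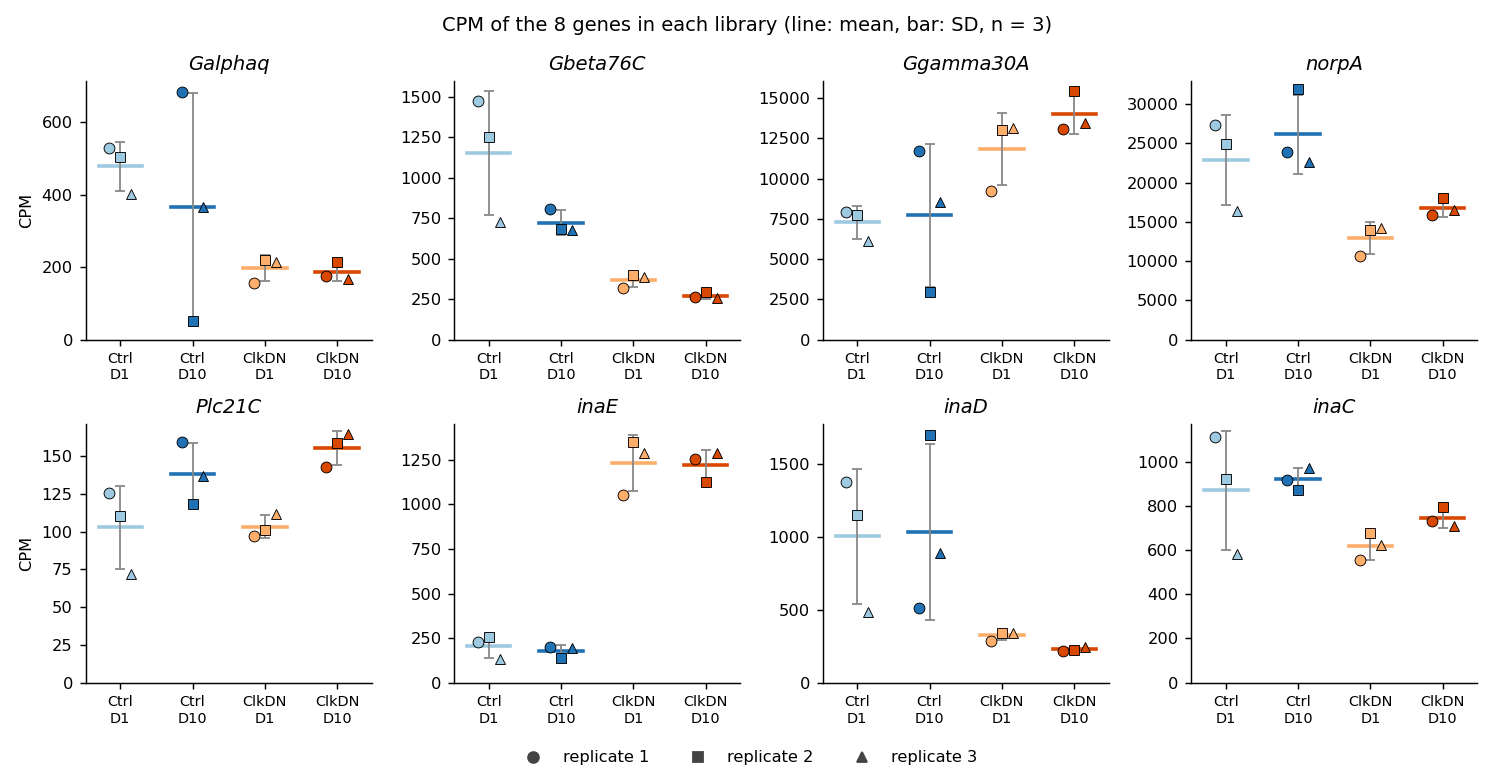
CPM (scaled counts, vertical axis from 0) of the 8 genes in each of the 12 libraries, grouped by genotype and age; marker shapes give the replicate, lines the mean and bars the SD of 3 libraries. inaE lies at 1056 CPM or more in all Rh1>ClkDN libraries and at 257 CPM or less in all Rh1>Ctrl libraries, and replicate 2 of Rh1>Ctrl at D10 is far below its partners for Galphaq and Ggamma30A.

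The Gq alpha subunit, which passes the signal from rhodopsin to the phospholipase, was lower in young Rh1>ClkDN photoreceptors. Galphaq (FBgn0004435, chromosome 2R, 12612740 to 12623197, plus strand, dm6, 14 merged exons) stood at 527, 504 and 402 CPM in the 3 Rh1>Ctrl libraries at D1 and at 156, 220 and 215 CPM in Rh1>ClkDN. The groups did not overlap, and the level was 2.51-fold lower in Rh1>ClkDN, a log2 fold change of -1.33 ± 0.17 (SE) with an adjusted p of 0.000522. The call was lost when all 12 libraries were fitted together (adjusted p = 0.0916). At D10 the Rh1>Ctrl libraries were at 682, 52.3 and 365 CPM and the Rh1>ClkDN libraries at 174, 213 and 168 CPM. Replicate 2 of Rh1>Ctrl fell below every Rh1>ClkDN library while its partners lay above all of them. The log2 fold change of -1.05 ± 0.66 was not called (adjusted p = 0.294). Without replicate 2 it was -1.49 with an adjusted p of 0.000299, and without replicate 1, the highest library, it was -0.18 with an adjusted p of 0.844. Of the 6910 exon bases of Galphaq, 3050 are shared with CG45086 on the same strand, which had 0 counts in all libraries. Reads from the shared bases may be uncounted, so the level of Galphaq per length is uncertain.

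Gbeta76C, the beta subunit that the visual G protein uses in the eye, was the only subunit of this G protein called lower at both ages. Gbeta76C (FBgn0004623, chromosome 3L, 19687637 to 19689992, plus strand, 6 merged exons) was at 1474, 1253 and 728 CPM in Rh1>Ctrl at D1 and at 316, 401 and 388 CPM in Rh1>ClkDN. The D10 levels were 810, 683 and 677 CPM in Rh1>Ctrl and 260, 294 and 255 CPM in Rh1>ClkDN. Every Rh1>ClkDN library was below every Rh1>Ctrl library at both ages. Gbeta76C was 3.18-fold lower at D1 (log2 fold change -1.67 ± 0.21, adjusted p = 0.000495) and 2.82-fold lower at D10 (log2 fold change -1.50 ± 0.19, adjusted p = 0.000740). The call held under all 15 alternatives of each comparison, with log2 fold changes from -1.83 to -1.50 at D1 and from -1.54 to -1.35 at D10.

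Ggamma30A, the gamma subunit that pairs with Gbeta76C, went the other way. Ggamma30A (FBgn0267252, chromosome 2L, 9256563 to 9302494, plus strand, 4 merged exons) was at 7957, 7744 and 6125 CPM in Rh1>Ctrl at D1 and at 9231, 13053 and 13162 CPM in Rh1>ClkDN. The groups did not overlap, and the gene was 1.57-fold higher in Rh1>ClkDN (log2 fold change 0.65 ± 0.19, adjusted p = 0.0485). This call was close to both thresholds, and 9 of 15 alternatives lost it, with adjusted p from 0.00278 to 0.301 over all of them. It held without replicate 3 of Rh1>Ctrl (adjusted p = 0.0172). Leaving out replicate 1 of Rh1>ClkDN moved the log2 fold change furthest, to 0.85 (adjusted p = 0.00278). At D10 the levels were 11695, 2939 and 8550 CPM in Rh1>Ctrl and 13110, 15442 and 13488 CPM in Rh1>ClkDN. The groups did not overlap here either, but replicate 2 of Rh1>Ctrl was at less than all other libraries, and the log2 fold change of 0.79 ± 0.41 was not called (adjusted p = 0.199). Without replicate 2 the log2 fold change was 0.48 with an adjusted p of 0.0296, a fold under 1.5, and without replicate 1 it was 1.28 with an adjusted p of 0.0282, which was called. The sign was positive in all 15 alternatives of the comparison at each age.

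The ratio of subunit counts within a library does not depend on the scaling, and it is given as a description. Counts are not corrected for length, with 12.5 kb of exon for Ggamma30A and 1.47 kb for Gbeta76C. The size of a ratio is thus not the balance of the subunits, and only its difference between groups is read. The ratio of Ggamma30A counts to Gbeta76C counts was between 5.40 and 8.41 in Rh1>Ctrl at D1 and between 29.2 and 33.9 in Rh1>ClkDN. In the older flies it was 14.4, 4.30 and 12.6 in Rh1>Ctrl and between 50.4 and 52.8 in Rh1>ClkDN. The range of each Rh1>ClkDN group was therefore narrow and lay above every Rh1>Ctrl library. The ratio of Galphaq to Gbeta76C counts overlapped between the genotypes at both ages, with 0.358 to 0.551 in Rh1>Ctrl and 0.492 to 0.553 in Rh1>ClkDN at D1. At D10 this ratio was 0.0765 in replicate 2 of Rh1>Ctrl, 0.842 and 0.539 in its partners, and 0.658 to 0.725 in Rh1>ClkDN.

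**Figure D2:**
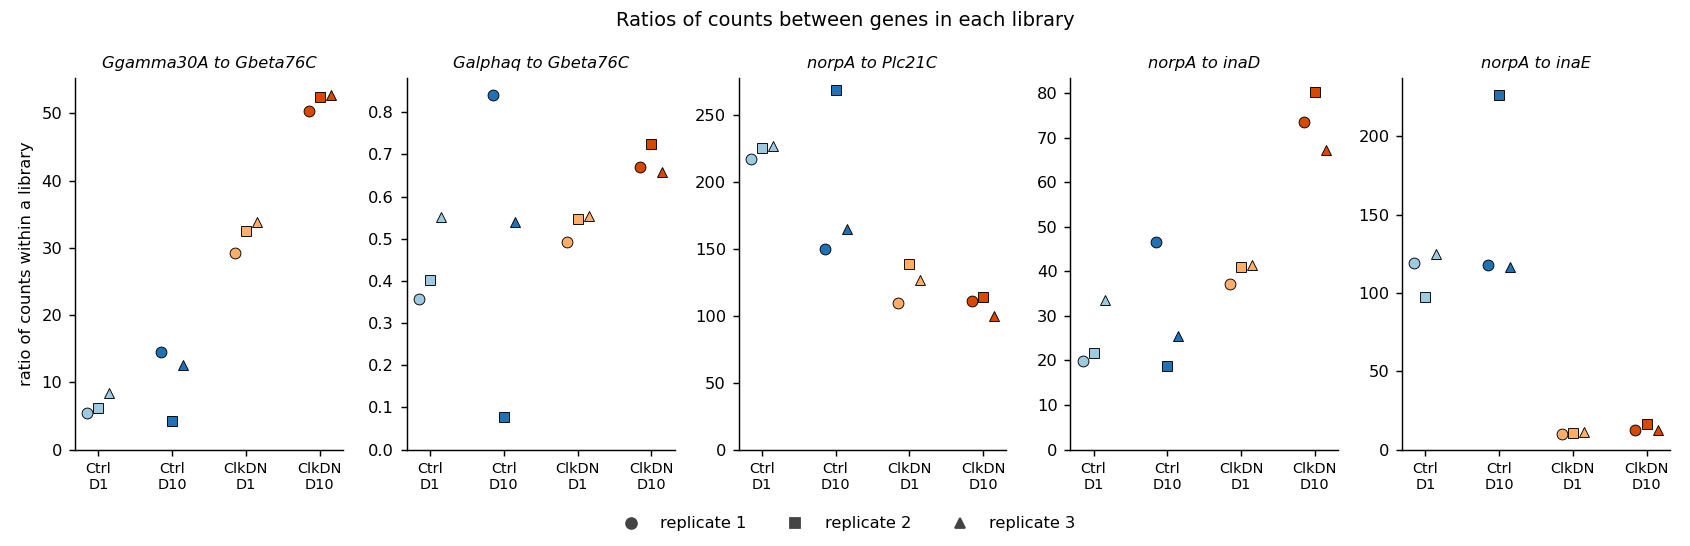
Ratios of the counts of gene pairs (vertical axes from 0, no unit) within each of the 12 libraries, grouped by genotype and age, with marker shapes for the replicate. Ggamma30A to Gbeta76C is at most 14.4 in Rh1>Ctrl and at least 29.2 in Rh1>ClkDN, and norpA to inaE is at least 97.2 in Rh1>Ctrl and at most 16.1 in Rh1>ClkDN.

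The phospholipase C of phototransduction was lower at both ages, at D1 by a smaller fold than the alpha and beta subunits, although the difference between genes was not tested. The norpA gene (FBgn0262738, chromosome X, 4322626 to 4365408, plus strand, 19 merged exons) had the highest mean CPM of all genes in both Rh1>Ctrl groups. At D1 it was at 27320, 24942 and 16423 CPM in Rh1>Ctrl and at 10642, 14006 and 14182 CPM in Rh1>ClkDN. At D10 it was at 23904, 31863 and 22635 CPM in Rh1>Ctrl and at 15873, 18086 and 16437 CPM in Rh1>ClkDN. The groups did not overlap at either age. Its level was 1.81-fold lower at D1 (log2 fold change -0.86 ± 0.21, adjusted p = 0.0210) and 1.65-fold lower at D10 (log2 fold change -0.72 ± 0.21, adjusted p = 0.0357). These calls were lost in 6 of 15 alternatives at D1 and in 10 of 15 at D10. Without replicate 2 of Rh1>Ctrl at D10 the log2 fold change was -0.45 (adjusted p = 0.00969), a fold under 1.5, and without replicate 3 of Rh1>Ctrl at D1 it was -0.95 (adjusted p = 0.00240). In the comparison at D1, leaving out replicate 2 or 3 of Rh1>ClkDN, or replicate 1 or 2 of Rh1>Ctrl, took the adjusted p to between 0.086 and 0.114.

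Plc21C, the other phospholipase C of the beta class, showed no called difference between genotypes. Plc21C (FBgn0004611, chromosome 2L, 305935 to 355566, plus strand, 19 merged exons) was at 126, 111 and 72.3 CPM in Rh1>Ctrl at D1 and at 97.0, 101 and 112 CPM in Rh1>ClkDN. The D10 levels were 160, 118 and 137 CPM in Rh1>Ctrl and 143, 158 and 165 CPM in Rh1>ClkDN. The groups overlapped at both ages, with log2 fold changes of -0.02 ± 0.18 at D1 (adjusted p = 0.953) and 0.09 ± 0.20 at D10 (adjusted p = 0.786). The ratio of norpA to Plc21C counts was 217 to 227 in Rh1>Ctrl and 110 to 139 in Rh1>ClkDN at D1. At D10 it was 150 to 269 in Rh1>Ctrl and 99.9 to 114 in Rh1>ClkDN. Plc21C shares 147 exon bases with CG43755 on the opposite strand, which had at most 42 counts.

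The largest difference among the 8 genes, at both ages, was that of inaE, whose product cleaves diacylglycerol, the lipid that phospholipase C releases. The inaE gene (FBgn0261244, chromosome X, 13783714 to 13811493, plus strand, 15 merged exons) was at 229, 257 and 132 CPM in Rh1>Ctrl at D1 and at 1056, 1352 and 1286 CPM in Rh1>ClkDN. In the older flies it was at 203, 141 and 194 CPM in Rh1>Ctrl and at 1253, 1127 and 1287 CPM in Rh1>ClkDN. The lowest Rh1>ClkDN library was far above the highest Rh1>Ctrl library at each age. The gene was 5.88-fold higher at D1 (log2 fold change 2.56 ± 0.20, adjusted p = 3.51e-05) and 6.49-fold higher at D10 (log2 fold change 2.70 ± 0.20, adjusted p = 5.48e-05). The call held under all 15 alternatives of each comparison, with log2 fold changes from 2.40 to 2.71 at D1 and from 2.64 to 2.85 at D10. The ratio of norpA to inaE counts was 97.2 to 125 in Rh1>Ctrl and 10.1 to 11.0 in Rh1>ClkDN at D1, and 116 to 226 and 12.7 to 16.1 at D10. By mean CPM, inaE ranked 725th of all genes in Rh1>Ctrl at D1 and 141st in Rh1>ClkDN.

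Markers of other cells moved in both directions. Of the 4 glial markers, moody, a receptor of the blood-brain barrier, was called higher at both ages. The repo, alrm and wrapper genes overlapped between the genotypes and were not called, with wrapper tested at D1 alone. At D10 the log2 fold change was -1.24 for repo and -0.44 for alrm. Without replicate 2 of Rh1>Ctrl, which stood apart, they were -0.31 and -0.02, and at D1 they were -0.06 and 0.06. The glial markers summed to 25.0 to 31.8 CPM in Rh1>Ctrl and 51.0 to 57.1 CPM in Rh1>ClkDN at D1. At D10 they summed to 28.0 to 50.3 and 43.7 to 47.3 CPM. The groups overlapped at D10 through replicate 2 of Rh1>Ctrl alone, at 50.3 CPM. Its partners, at 32.3 and 28.0 CPM, were below every Rh1>ClkDN library. The higher sums in Rh1>ClkDN came from moody. Its means were 7.28 CPM in Rh1>Ctrl and 32.0 CPM in Rh1>ClkDN at D1, and 12.6 and 30.0 CPM at D10. Mean repo, alrm and wrapper were 6.14, 12.5 and 2.16 CPM in Rh1>Ctrl and 6.02, 13.4 and 2.75 CPM in Rh1>ClkDN at D1. At D10 these were 14.0, 8.68 and 1.53 CPM and 5.96, 6.50 and 2.98 CPM. Of the 4 markers of other neurons, VAChT and Gad1, which serve acetylcholine and GABA transmission, were called higher at D1 and none at D10. VAChT did not overlap between the genotypes at D10, with a log2 fold change of 1.01 (adjusted p = 0.0606). Without replicate 2 of Rh1>Ctrl it was called higher, at 0.85 (adjusted p = 0.0138). The other log2 fold changes at D10 were 0.53 for ChAT, 0.03 for Gad1 and -0.43 for VGlut. The 4 markers summed to 135 to 186 CPM in Rh1>Ctrl and 254 to 363 CPM in Rh1>ClkDN at D1, and to 155 to 317 and 273 to 316 CPM at D10. The overlap at D10 came through replicate 1 of Rh1>Ctrl, at 317 CPM, with its partners at 155 and 181 CPM. Of the 6 R7 and R8 markers, pros alone was called, higher at D1. The log2 fold changes at D1 were 0.70 for Rh3, 1.71 for Rh4, 0.98 for Rh5, 1.06 for Rh6, 0.91 for pros and 0.45 for sens. For Rh3, Rh4 and Rh5 only the highest Rh1>ClkDN library, at 31.0, 90.8 and 26.0 CPM, lay above the Rh1>Ctrl range. Rh6 had a highest library of 45.4 CPM and a median of 14.5 CPM, against at most 14.1 CPM in Rh1>Ctrl. At D10 the log2 fold changes were -0.12 for Rh3, -0.001 for Rh4, -0.02 for Rh5 and 0.49 for pros, and sens was not tested. Rh6, the rhodopsin of a class of R8 cells, was at -0.74 at D10 without a call, although its groups did not overlap. These markers summed to 200 to 287 CPM in Rh1>Ctrl and 404 to 605 CPM in Rh1>ClkDN at D1. At D10 they summed to 267 to 414 and 466 to 487 CPM, and the sums overlapped at neither age. Most of each sum was pros, with means of 209 CPM in Rh1>Ctrl and 403 CPM in Rh1>ClkDN at D1. Its means at D10 were 273 and 404 CPM, so the sums mainly follow pros and not the rhodopsin genes. The muscle markers went the other way, with Mhc, the muscle myosin heavy chain, called lower at both ages. They summed to 136 to 291 CPM in Rh1>Ctrl and 80.9 to 125 CPM in Rh1>ClkDN at D1, and to 71.6 to 231 and 31.8 to 49.5 CPM at D10. None of the 4 cone and pigment cell markers was called. Of the hemocyte markers, Hml was not called and NimC1 was not tested. The cone and pigment cell markers summed to 69.9 to 151 CPM in Rh1>Ctrl and 117 to 286 CPM in Rh1>ClkDN at D1, and to 129 to 199 and 105 to 112 CPM at D10. The part of these cells in the rise of inaE and Ggamma30A was not tested.

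The scaffold gene inaD fell at both ages. The inaD gene (FBgn0001263, chromosome 2R, 22855688 to 22858794, minus strand, 9 merged exons) was at 1373, 1147 and 488 CPM in Rh1>Ctrl at D1 and at 287, 342 and 343 CPM in Rh1>ClkDN. In the older flies it was at 514, 1698 and 890 CPM in Rh1>Ctrl and at 216, 225 and 245 CPM in Rh1>ClkDN. The Rh1>Ctrl libraries spread widely, with an SD of 45.9% of the mean at D1 and 58.5% at D10, whereas the SD in Rh1>ClkDN was 9.95% and 6.42%. The groups did not overlap. The gene was 3.11-fold lower at D1 (log2 fold change -1.64 ± 0.27, adjusted p = 0.00278) and 4.79-fold lower at D10 (log2 fold change -2.26 ± 0.40, adjusted p = 0.00428). Without replicate 2 of Rh1>Ctrl at D10, the highest library, it was -1.60 (adjusted p = 3.92e-05), and without replicate 3 of Rh1>Ctrl at D1, the lowest, it was -1.90 (adjusted p = 1.39e-06). The call at D10 was lost in 1 of 15 alternatives, the one without replicate 2 of Rh1>ClkDN (adjusted p = 0.0532). The ratio of norpA to inaD counts was 19.9, 21.7 and 33.7 in Rh1>Ctrl and 37.1 to 41.3 in Rh1>ClkDN at D1. At D10 it was 46.5, 18.8 and 25.4 in Rh1>Ctrl and 67.2 to 80.2 in Rh1>ClkDN.

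The eye protein kinase C, which INAD binds and which acts in deactivation and adaptation, differed less. The inaC gene (FBgn0004784, chromosome 2R, 16898535 to 16901575, plus strand, 11 merged exons) was at 1112, 919 and 581 CPM in Rh1>Ctrl at D1 and at 555, 678 and 622 CPM in Rh1>ClkDN. Replicate 3 of Rh1>Ctrl lay within the Rh1>ClkDN range, and the log2 fold change of -0.52 ± 0.19 was not called (adjusted p = 0.0982). Without that library it was -0.65 with an adjusted p of 0.00171, which was called. At D10 inaC was at 915, 872 and 973 CPM in Rh1>Ctrl and at 729, 792 and 710 CPM in Rh1>ClkDN. The groups did not overlap at D10, but the log2 fold change of -0.38 ± 0.16 was not called (adjusted p = 0.133). Counting by CPM alone, 6 of the 8 genes had groups that did not overlap at D1, 2 higher and 4 lower in Rh1>ClkDN, beside 31.4% of the genes tested, 21% higher and 10.4% lower. At D10 these were again 6 genes, 2 higher and 4 lower, beside 41.6% of the genes tested, 25.5% higher and 16.1% lower.

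**Figure D3:**
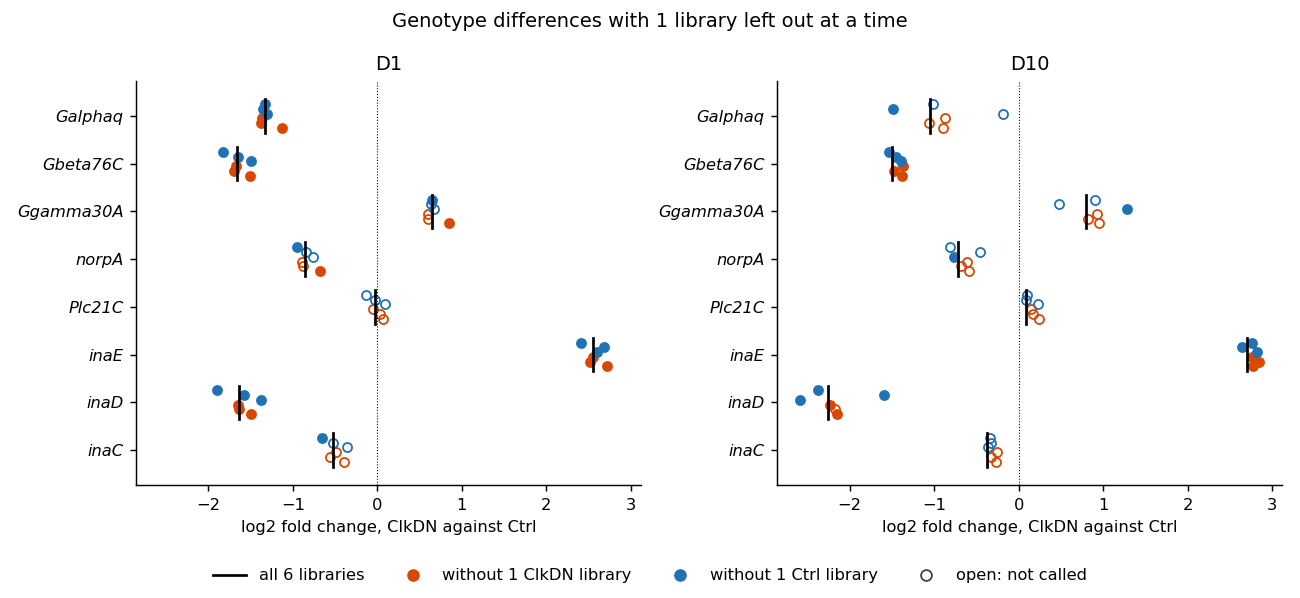
Log2 fold change of Rh1>ClkDN against Rh1>Ctrl (horizontal axis) for the 8 genes at D1 and D10 with all 6 libraries (black line) and with 1 library left out at a time (points, orange for Rh1>ClkDN and blue for Rh1>Ctrl); open points were not called. Gbeta76C and inaE are called in every case, whereas Galphaq at D10 runs from -1.49 to -0.18.

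Across ages, no gene of the 8 was called in Rh1>Ctrl, where 0.705% of 7239 genes were called (0.318% higher and 0.387% lower at D10). In Rh1>ClkDN 1 was called, higher at D10, where 14.6% of 8451 genes were called (8.44% higher and 6.18% lower). In Rh1>Ctrl 1 of the 8 genes had an unadjusted p under 0.05, and DESeq2 called 0. The D1 and D10 libraries overlapped for all 8 genes in Rh1>Ctrl, whereas 15.6% of the genes tested did not overlap (8.55% higher and 7.05% lower). Gbeta76C had the largest difference there, a log2 fold change from D1 to D10 of -0.63 ± 0.25 (adjusted p = 0.360). Without both Rh1>Ctrl libraries that stood apart, an alternative chosen after seeing the data, Gbeta76C was called lower at D10 (adjusted p = 0.0249), the only one of the 8.

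In Rh1>ClkDN, Plc21C rose from 97.0 to 112 CPM at D1 to between 143 and 165 CPM at D10, with a log2 fold change of 0.61 ± 0.12 (adjusted p = 0.00272). Its fold was close to the threshold, and 4 of 15 alternatives lost the call, among them leaving out replicate 1 or 2 at D1 or replicate 3 at D10. Gbeta76C and inaD passed the adjusted p with folds under 1.5 and were not called, with log2 fold changes of -0.43 ± 0.12 (adjusted p = 0.0244) and -0.48 ± 0.12 (adjusted p = 0.00880). The D1 and D10 libraries of Rh1>ClkDN did not overlap for 5 of the 8 genes, beside 34.9% of the genes tested (17.4% in each direction). Of these, norpA, Plc21C and inaC were higher at D10 and Gbeta76C and inaD were lower. The log2 fold change of inaE was 0.01 ± 0.13.

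The interaction of genotype and age, fitted over all 12 libraries, tests whether the genotype difference itself differed between D1 and D10. It was called for 0 of the 8 genes, with none at an unadjusted p under 0.05, beside 0.613% of 9135 genes (0.427% higher and 0.186% lower), and DESeq2 also called 0. For 7 of the genes the interaction was between 0.20 and 0.35 on the log2 scale with SE from 0.30 to 0.71, and for inaD it was -0.54 ± 0.51. These SE are too large to show small differences between the ages. The call for Galphaq at D1 and its absence at D10 thus do not show a difference between the ages (interaction 0.35 ± 0.71, adjusted p = 0.898).

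Levels were compared between genes per kb of exon, as mean CPM per kb ± SD over 3 libraries. In Rh1>Ctrl at D1 the order was norpA (2760 ± 691), Gbeta76C (786 ± 261), Ggamma30A (580 ± 79.9), inaD (430 ± 197), inaC (370 ± 114), Galphaq (69.1 ± 9.67), inaE (28.9 ± 9.21) and Plc21C (13.2 ± 3.54). The neighbours from Gbeta76C down to inaC in this order lay within 1 SD of each other, and the steps from norpA to Gbeta76C, from inaC to Galphaq, from Galphaq to inaE and from inaE to Plc21C were larger than either SD. With the shared exon bases left out, Galphaq was at 124 ± 17.3 per kb and kept its place. In Rh1>ClkDN at D1 the order was norpA (1560 ± 240.5), Ggamma30A (942 ± 178), inaC (263 ± 26.1), Gbeta76C (252 ± 31.3), inaE (173 ± 21.9), inaD (139 ± 13.8), Galphaq (28.5 ± 5.16) and Plc21C (13.3 ± 0.991), with inaC and Gbeta76C within 1 SD of each other. Thus inaE stood above inaD and Galphaq in Rh1>ClkDN and below both in Rh1>Ctrl. The order at D10 in Rh1>ClkDN was the same as at D1, from norpA (2025 ± 139) to Plc21C (20.0 ± 1.44), with inaE (171 ± 11.8) above inaD (98.1 ± 6.30). In Rh1>Ctrl at D10, Ggamma30A (616 ± 354) and Gbeta76C (494 ± 51.0) changed places within their spread, and inaE (25.2 ± 4.70) stayed above Plc21C (17.8 ± 2.65). Nuclear RNA holds intronic reads. The study's methods name STAR's gene counts, which are taken over exons, for the input of another analysis, and the counting for this table is not given in the sources used here.

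Of other subunits and enzymes of the same families, the table holds 12 of 13 genes listed. At D1, 2 of the 12 tested were called higher and 0 lower, beside 10.2% and 5.86% of all genes tested, and at D10, 0 of the 10 tested were called higher and 1 lower, beside 14.5% and 9.07%. Their median log2 fold change was -0.13 at D1 and 0.06 at D10. Galphao, the alpha subunit of the Go class, was higher at D1, at 161 to 203 CPM in Rh1>Ctrl and 269 to 320 CPM in Rh1>ClkDN (log2 fold change 0.61 ± 0.15, adjusted p = 0.0182). Gbeta13F, the widely used beta subunit, was also higher at D1, at 127 to 183 CPM in Rh1>Ctrl and 252 to 280 CPM in Rh1>ClkDN (log2 fold change 0.71 ± 0.15, adjusted p = 0.00965). Gbeta5, a beta subunit that partners with RGS proteins, was lower at D10, at 20.6 to 26.5 CPM in Rh1>Ctrl and 6.40 to 9.70 CPM in Rh1>ClkDN (log2 fold change -1.52 ± 0.31, adjusted p = 0.00855). None of these genes was called at the other age. The D10 log2 fold change was 0.61 for Galphao (adjusted p = 0.250) and 0.41 for Gbeta13F (adjusted p = 0.520). Without replicate 2 of Rh1>Ctrl that of Galphao was 0.39 (adjusted p = 0.169). At D1 Gbeta5 was at -0.52 (adjusted p = 0.354). Leaving out replicate 2 of Rh1>ClkDN at D1 took the number called at D1 to 0, leaving out any Rh1>ClkDN library took that at D10 to 0, and leaving out replicate 1 of Rh1>Ctrl took it to 3.

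The remaining family genes were not called at either age. Ggamma1, the other gamma subunit, had log2 fold changes of 0.61 ± 0.21 at D1 and 0.16 ± 0.60 at D10, Galphas of -0.26 ± 0.17 and -0.44 ± 0.21, and cta of -0.29 ± 0.16 and 0.33 ± 0.49. The phospholipase C of the gamma class, sl, had 0.49 ± 0.29 and -0.04 ± 0.25. Among the protein kinases C, Pkc53E had -0.43 ± 0.17 and -0.37 ± 0.28, Pkc98E 0.22 ± 0.17 and -0.07 ± 0.18, and aPKC -0.01 ± 0.19 and 0.31 ± 0.22. Galphai and Galphaf were at most 6.62 CPM in any library and were tested at D1 alone, without a call. Ggamma1 was at 33.7 CPM in replicate 2 of Rh1>Ctrl at D10 and at 189 and 332 CPM in its partners, and Gbeta13F was at 68.1, 166 and 276 CPM, so the library that was low for Galphaq and Ggamma30A was low for these subunits too. Without it the D10 log2 fold changes were -0.25 for Ggamma1, 0.13 for Gbeta13F and -0.04 for cta, none of them called.

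**Figure D4:**
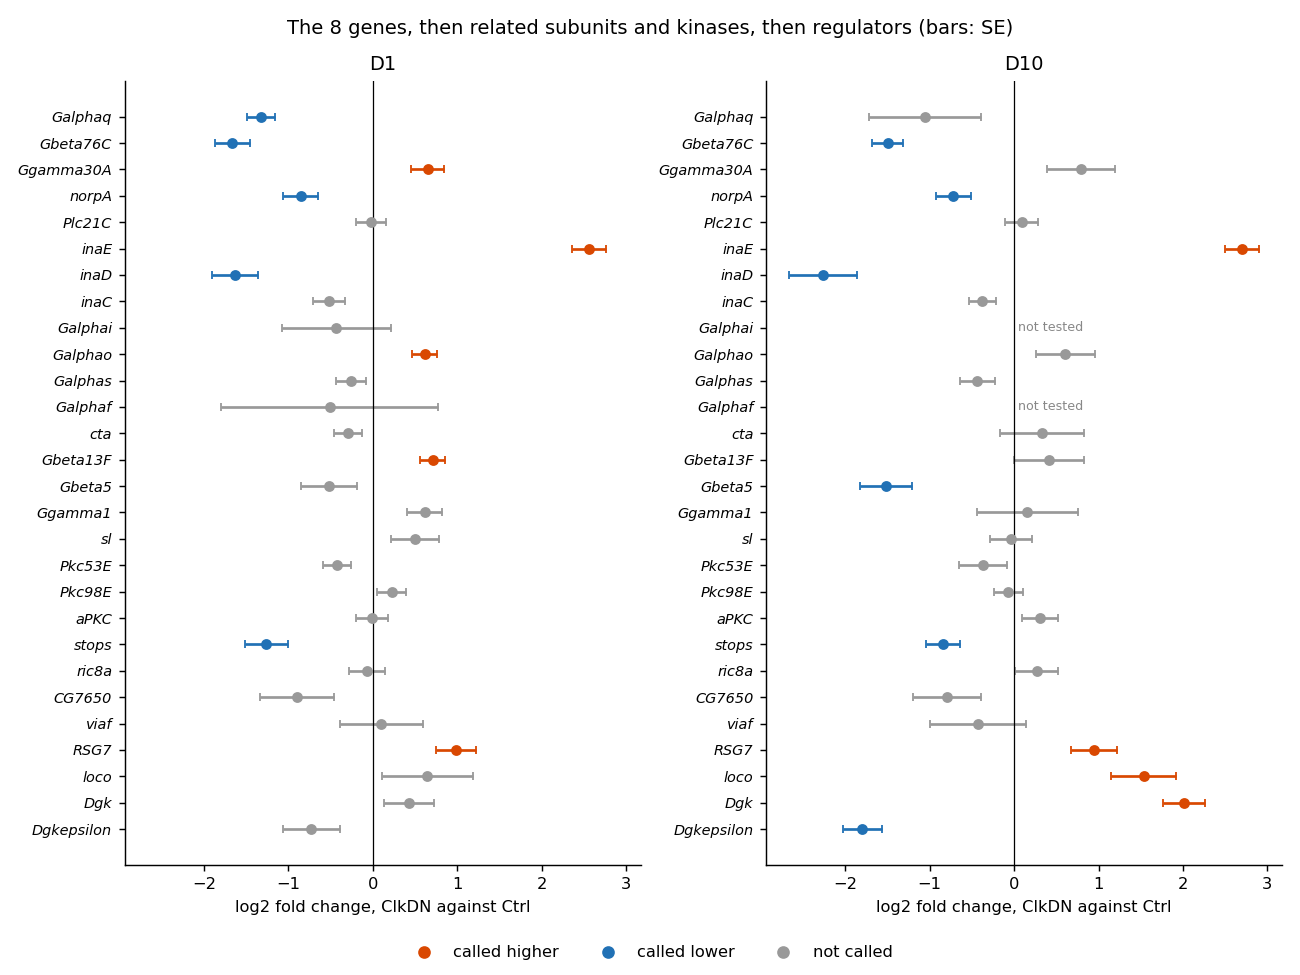
Log2 fold change of Rh1>ClkDN against Rh1>Ctrl (horizontal axis, bars 1 SE) at D1 and D10 for the 8 genes, 12 genes of the same families and 8 regulators; orange was called higher, blue lower and grey not called. Among the family genes at D1, Galphao and Gbeta13F alone are called, both higher.

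Listed regulators, which act on Gq, phospholipase C or diacylglycerol or encode RGS proteins, changed in both directions. Whether the RGS proteins act on Gq here was not tested. Of the 8 listed, 1 was called higher and 1 lower at D1, beside 10.2% and 5.86% of all genes tested, and 3 higher and 2 lower at D10, beside 14.5% and 9.07%, with medians of 0.01 and -0.08. The stops gene, which sustains the level of NORPA protein, was at 1626, 1533 and 638 CPM in Rh1>Ctrl and 475 to 566 CPM in Rh1>ClkDN at D1 (log2 fold change -1.26 ± 0.26, adjusted p = 0.00819) and was lower at D10 (log2 fold change -0.84 ± 0.20, adjusted p = 0.0156). RSG7, an RGS protein that speeds G protein shut-off, was at 14.1 to 16.4 CPM in Rh1>Ctrl and 29.0 to 36.2 CPM in Rh1>ClkDN at D1 (log2 fold change 0.99 ± 0.24, adjusted p = 0.0184) and was higher at D10 (log2 fold change 0.95 ± 0.27, adjusted p = 0.0345). At D10 the RGS gene loco was also higher (log2 fold change 1.53 ± 0.38, adjusted p = 0.0202). Leaving out any Rh1>ClkDN library, or replicate 3 of Rh1>Ctrl, took the number of these genes called at D10 from 5 to 2. At D1, where 2 were called, the number was 1 without replicate 3 of Rh1>ClkDN or without replicate 1 or 2 of Rh1>Ctrl. It was 4 without replicate 3 of Rh1>Ctrl, with Dgk called higher (adjusted p = 0.0325) and Dgkepsilon lower (adjusted p = 0.0314) in addition, and stops at -1.51 (adjusted p = 2.69e-06).

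The diacylglycerol kinases, which turn diacylglycerol into phosphatidic acid, diverged at D10. Dgk was at 29.1 to 49.7 CPM in Rh1>Ctrl and 152 to 194 CPM in Rh1>ClkDN (log2 fold change 2.01 ± 0.25, adjusted p = 0.000678). Dgkepsilon was at 54.9 to 62.7 CPM in Rh1>Ctrl and 14.9 to 19.4 CPM in Rh1>ClkDN (log2 fold change -1.80 ± 0.23, adjusted p = 0.000788). The eye diacylglycerol kinase rdgA, which acts on diacylglycerol as inaE does, had log2 fold changes of 0.33 ± 0.22 at D1 and 0.49 ± 0.17 at D10 and was not called (adjusted p = 0.390 and 0.0680). Dgk also rose with age in Rh1>ClkDN (log2 fold change 2.14 ± 0.14, adjusted p = 9.31e-08), and its interaction of 1.66 was not called (adjusted p = 0.0625). The interaction was called, as higher, in 5 of 21 alternatives, among them DESeq2 (adjusted p = 0.00527) and leaving out both Rh1>Ctrl libraries that stood apart (adjusted p = 0.0200), with adjusted p up to 0.205 in the others.

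In the rest of the cascade, 13 of 20 genes tested were called lower and 0 higher at D1, beside 5.86% and 10.2% of all genes tested, and 14 of 21 lower and 0 higher at D10, beside 9.07% and 14.5%. The medians were -1.16 and -1.10. At D1 the largest falls among these were of the channel genes trpl (log2 fold change -2.89 ± 0.29, adjusted p = 0.000144) and trp (log2 fold change -1.94 ± 0.28, adjusted p = 0.00112), followed by ninaE, the rhodopsin 1 gene (log2 fold change -1.86 ± 0.28, adjusted p = 0.00143). Without replicate 3 of Rh1>Ctrl these were -3.15, -2.18 and -2.11. At D10 they were of Arr2, an arrestin (log2 fold change -3.47 ± 0.23, adjusted p = 3.40e-05), ninaE (log2 fold change -3.13 ± 0.17, adjusted p = 1.10e-05) and trpl (log2 fold change -2.42 ± 0.27, adjusted p = 0.000423), and without replicate 2 of Rh1>Ctrl they were -3.20, -3.09 and -2.08. The inaE and Ggamma30A genes were thus the called genes that went against the fall at D1, and inaE was the only one at D10, among all 28 genes of the cascade tested at D1 and 29 at D10. Of the cascade outside the 8, Trpgamma, at most 8.83 CPM at D10, was called higher there without replicate 1 of Rh1>Ctrl (log2 fold change 2.87, adjusted p = 0.0437). The rdgA gene was called higher at D10 with a minimum mean count of 50 (log2 fold change 0.63, adjusted p = 0.0317). Both were chosen after their values were seen. At D10 rdgA was at 16235 to 17783 CPM in Rh1>Ctrl and 23805 to 27165 CPM in Rh1>ClkDN, without overlap. Without replicate 2 of Rh1>Ctrl its log2 fold change was 0.58 (adjusted p = 0.00299), a fold under 1.5. Leaving out 1 library at a time gave 10 to 16 called genes of the rest of the cascade at D1 and 8 to 17 at D10, and the lowest value at D10 came from leaving out any of the Rh1>ClkDN libraries.

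**Figure D5:**
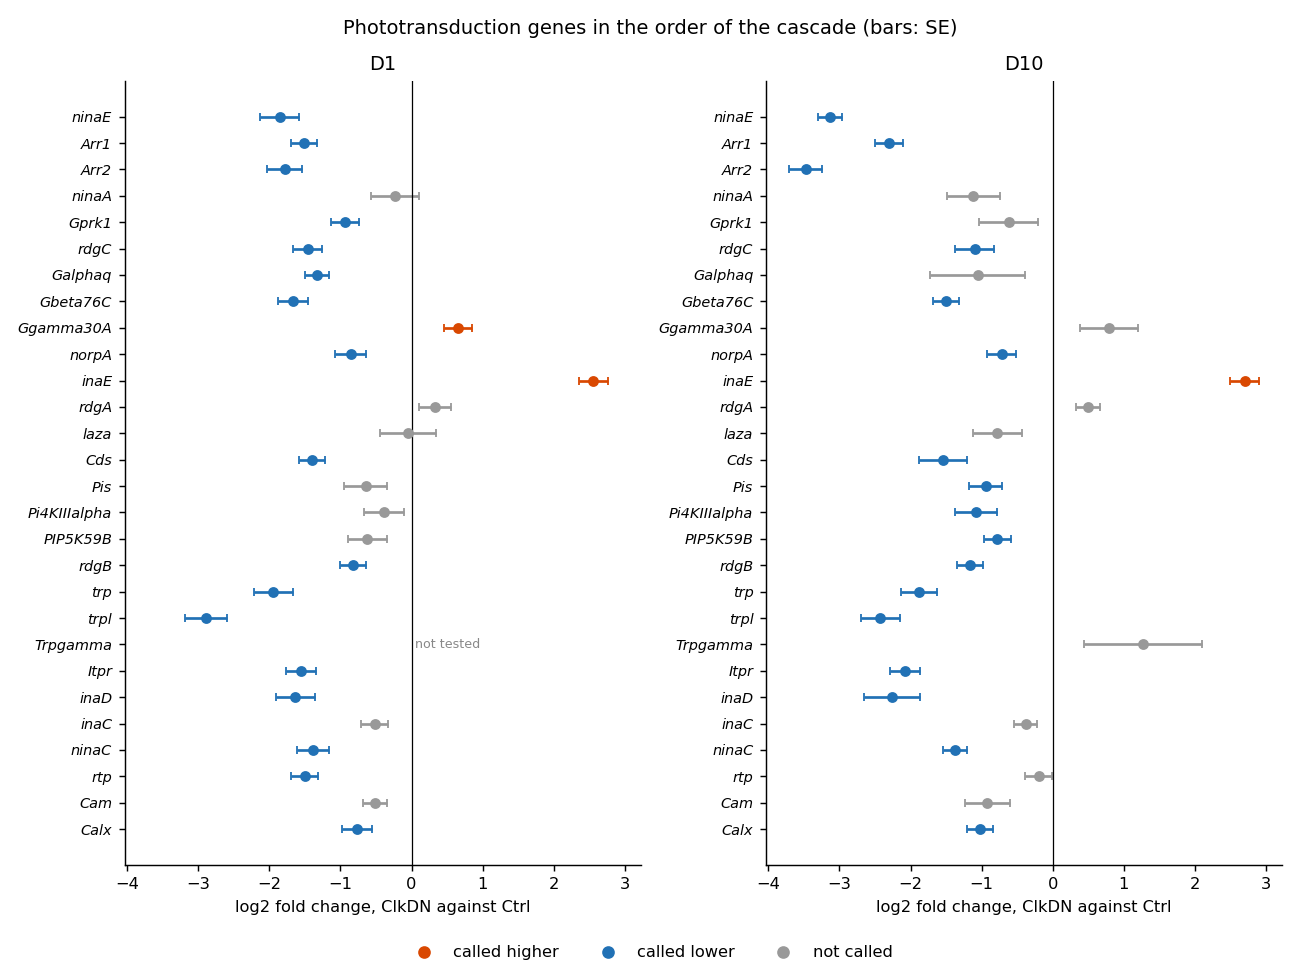
Log2 fold change of Rh1>ClkDN against Rh1>Ctrl (horizontal axis, bars 1 SE) at D1 and D10 for genes of phototransduction from rhodopsin (top) to calcium handling (bottom); orange was called higher, blue lower and grey not called. Ggamma30A and inaE are orange at D1 and inaE alone at D10, among genes that are mostly to the left of 0.

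Genes whose levels ran most like each of the 8 were found among the 4288 genes whose mean count reached 50, by Pearson's r of log2(CPM + 1) over the 12 libraries, as a description. The libraries share 4 groups and their depth, so a gene that differs between the genotypes by a like amount has a high r. For inaE these were AMPdeam, kmr and eya (r from 0.989 to 0.994), of which eya encodes a transcription cofactor of eye development. For Ggamma30A they were the transcription factor gene zfh2, the RNA-binding protein gene Rbp6 and eIF4EHP (r from 0.990 to 0.992). For inaD they were kst, the clock gene per and Gapvd1 (r from 0.979 to 0.991), and for Gbeta76C the chloride channel gene ClC-a, spdi and sunz (r from 0.986 to 0.991). Galphaq ran most like Cadps, gus and Asator (r from 0.976 to 0.984). The norpA gene ran most like CG3618, Msp300 and peb (r from 0.956 to 0.975), and Msp300 counts may include the KASH transgene. For inaC they were IleRS, CadN and snz (r from 0.956 to 0.959), and for Plc21C PEK, the synapsin gene Syn and CG43736 (r from 0.921 to 0.957).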

How the data were processed

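The authors deposited 1 table of counts per gene for the 12 libraries, under a name that calls the values normalized. All values are whole numbers and library totals differ by 4.155-fold, so they were treated as unnormalized counts. STAR, Trimmomatic, SAMtools and DESeq2 are listed in the submitters' processing notes without roles. The genome was dm6; the strand setting and annotation release are not given in the sources used here. Of 13929 genes, 13866 matched Ensembl release 115 for symbols, locations and exon lengths.

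Groups came from sample titles. Pairs of groups were fitted with edgeR 4.0.16 in R 4.3.3 (TMM on totals of the whole table, quasi-likelihood test, Benjamini-Hochberg adjustment), and the interaction over all 12 libraries. The SE of a log2 fold change was its size over the root of edgeR's F statistic. CPM used TMM factors over all libraries. The script was tested on simulated data. Alternatives were RLE factors, total-count scaling, DESeq2 1.42.0, limma 3.58.1 on log2(CPM + 1), no filter, a mean count of at least 50, a replicate block, 1 library left out, all 12 libraries in 1 fit, no fold threshold and an adjusted p under 0.01. Library sizes over tested genes, and leaving out both Rh1>Ctrl libraries that stood apart, were added after seeing the data.

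The 8 genes and all lists were chosen with earlier results of these data known. All 8 genes and all family genes are named. Of the cascade and the regulators, the called genes with the 3 largest rises and falls between genotypes are named, and for each of the 8 genes the 3 most like it. Ageing and interaction values of Dgk, and values of rdgA and of the genes low in 1 library, were chosen after they were seen. Promoter motifs and protein sequences were not analysed here. Python 3.11.15 and matplotlib 3.10.9 drew the figures.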

Additional observations from a re-analysis of the deposited data

How the results depend on the processing

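The calls of Gbeta76C and inaE between genotypes held in every alternative at both ages, and those of inaD in all at D1 and in all but 1 at D10. Between genotypes the 8 genes kept their direction and their side of the thresholds in 98 of 120 values at D1 and 107 of 120 at D10; 16 and 11 lost a call, 1 and 2 gained one and 5 and 0 changed sign. Every sign change at D1 was in Plc21C, at 0.040 with total-count scaling, 0.021 with no filter on low counts, and from -0.13 to 0.095 with 1 library left out. The cause was not tested.

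Across ages in Rh1>Ctrl the log2 fold changes were near 0 for most genes and changed sign in 17 of 128 values. Ggamma30A was at -0.13 with limma, -0.013 with a minimum mean count of 50, and from -0.36 to 0.38 with 1 library left out. Without both Rh1>Ctrl libraries that stood apart, Galphaq was at 0.081, norpA at -0.12, inaC at -0.056 and inaD at -0.80. With limma inaD was at -0.0033. With 1 library left out Galphaq ran from -1.23 to 0.041, norpA from -0.056 to 0.35, inaC from -0.064 to 0.15 and inaD from -0.56 to 0.49. In Rh1>ClkDN, inaE was at -0.011 with no filter and from -0.076 to 0.075 with 1 library left out, and Galphaq from -0.20 to 0.013. For the interaction, without both libraries, Galphaq was at -0.091, Ggamma30A at -0.10 and inaD at 0.36; with 1 library left out they ran from -0.16 to 1.16, from -0.16 to 0.65 and from -0.88 to 0.061.

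The number of the 8 genes called was 1 in Rh1>Ctrl across ages without both libraries, 0 in Rh1>ClkDN with all 12 libraries in 1 fit and 3 there with no fold threshold. With 1 library left out it ran from 4 to 7 between genotypes at D1, from 2 to 5 at D10 and from 0 to 1 in Rh1>ClkDN across ages, and stayed at 0 in Rh1>Ctrl and for the interaction. Over all genes, 1324 were called at D1, 1852 at D10, 51 across ages in Rh1>Ctrl, 1235 in Rh1>ClkDN and 56 for the interaction. With an adjusted p under 0.01 these were 744, 921, 5, 808 and 11. With 1 library left out they ran from 748 to 2206, from 552 to 2450, from 1 to 171, from 834 to 1540 and from 12 to 117. A minimum mean count of 50, which tests fewer genes, gave 1171 at D10, 77 in Rh1>Ctrl and 136 for the interaction. No filter gave 147 in Rh1>Ctrl and 105 for the interaction, DESeq2 gave 189 and 269, and leaving out both libraries gave 357 and 306. All 12 libraries in 1 fit gave 235 in Rh1>Ctrl and 287 in Rh1>ClkDN, and total-count scaling gave 108 for the interaction.

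Same-numbered replicates did not deviate together, with correlations over 0.1 in 0 or 1 of 3 pairs per comparison, so the numbers were not taken to pair the samples. With the replicate number as a block, 1269 genes were called at D1 and 1096 at D10, 60 in Rh1>Ctrl, 1291 in Rh1>ClkDN and 30 for the interaction. With this block 4 of the 8 genes were called at D1 and 3 at D10, Ggamma30A and norpA were not called, and Ggamma30A across ages in Rh1>Ctrl was at -0.12. Scaling by library totals in place of TMM moved all 32 group means of the 8 genes by less than 1 SD. The analysis of promoter motifs was not run.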
